A study of Mus musculus with 2 samples.

Results

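Of the 168 miRNAs that miRDeep2 predicted from small RNA of mouse testicular extracellular vesicles (EVs), 49 lay no more than 10000 bp from a predicted piRNA locus with which they share chromosome and strand. They were chosen by position alone, by setting the deposited interval of each predicted miRNA against the deposited intervals of 1648 loci to which 6587 predicted piRNAs were assigned. The other 119 predicted miRNAs lay farther away and serve for comparison. The 49 are on 13 chromosomes, 29 on the plus and 20 on the minus strand, and their intervals are 39 to 94 nt long with a median of 62 nt. The intervals of the other 119 are 38 to 105 nt long with a median of 65 nt.

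The vesicles came from the testes of adult male C57/BL6 mice aged 8 weeks, and before RNA extraction proteinase K and RNase A were applied to them to digest protein and RNA outside the membrane. They were isolated after dissociation of seminiferous tubules into single cells, and the cells that released them are not told apart here. There were 2 libraries of this 1 condition, with listed counts of 21970654 in library 1 and 24829208 in library 2 over 27065 entries. Whether different animals or vesicle preparations gave rise to the libraries is not stated in the sources used here, so their spread may be technical, and 1 condition allows no test of conditions. Levels are counts per 1000000 listed counts (CPM), given for each library and as mean ± SD (n = 2), with no correction for interval length unless stated.

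miRNAs are cut by Drosha and Dicer out of hairpin precursors and guide Argonaute proteins to target mRNAs. piRNAs are longer, are made without Dicer from long single-stranded precursors and guide PIWI proteins of the germline, in part against transposons. In the adult mouse testis most of them arise in pachytene spermatocytes from a limited set of long genomic clusters, many of which are transcribed in both directions from a shared promoter.

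The 7 entries for which an annotated transcript or promoter covers the whole interval could be read as sequence. Of these, 5 are shown as examples. All 5 lie on or opposite an annotated exon, whereas 30 of the 49 overlapped no annotated gene. The 5 thus do not stand for the positions of the 49. novel_mir3566, novel_mir20 and novel_mir993 are minus-strand entries of the stretch of chromosome 17 that held more of the 49 than any other, novel_mir1870 overlaps a predicted piRNA locus on chromosome 5, and novel_mir2009 lies on chromosome 17 in an exon of Gm26917. Each is written 5′ to 3′ as DNA at the deposited interval, and capitals mark the bases that pair in the predicted fold of lowest free energy.
novel_mir3566: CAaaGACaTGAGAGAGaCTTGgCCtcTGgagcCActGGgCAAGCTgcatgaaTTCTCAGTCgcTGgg
novel_mir20: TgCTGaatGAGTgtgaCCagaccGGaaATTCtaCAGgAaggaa
novel_mir993: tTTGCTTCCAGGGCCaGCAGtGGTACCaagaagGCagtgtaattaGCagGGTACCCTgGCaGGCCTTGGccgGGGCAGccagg
novel_mir1870: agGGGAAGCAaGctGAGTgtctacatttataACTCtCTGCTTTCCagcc
novel_mir2009: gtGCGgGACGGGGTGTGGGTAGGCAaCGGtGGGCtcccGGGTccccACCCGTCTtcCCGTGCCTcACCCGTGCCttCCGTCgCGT
novel_mir20 was read from the RefSeq promoter of Gm10505 (GRCm38.p6) and the other 4 from GENCODE M21 transcripts (GRCm38). The intervals are chr17:27342751-27342817, chr17:27342431-27342473, chr17:27358822-27358904 and chr5:113325289-113325337 for the first 4, and chr17:39844203-39844287 for novel_mir2009. The build of the deposited positions is not stated, and they were read as GRCm38.

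All 7 readable entries folded into a structure with 1 hairpin loop, as did 33 of 36 other predicted miRNAs and 950 of 1005 RefSeq hairpins. The predicted entries were called as miRNAs, which come from hairpin precursors, so a hairpin fold is not independent of their prediction. The fold energy of the 7 was between -52.7 kcal/mol per 100 nt, in novel_mir2009, and -9.77, in novel_mir20, with a median of -29.0. The median was -39.6 for 36 other predicted miRNAs that could be read and -40.6 for 1005 mouse miRNA hairpins of RefSeq. The groups were not matched for length or base composition, and their median lengths were 60 nt in the 7, 65 nt in the 36 and 79 nt in the annotated hairpins. The median share of paired bases was 62.7% in the 7, 63.7% in the 36 and 69.0% in the annotated hairpins. novel_mir993 and novel_mir1870 show runs of paired bases on both sides of a central unpaired loop, while the short novel_mir20 has only brief paired runs and 46.5% of its bases paired. A T stands first in 2 of the 7, novel_mir20 and novel_mir993, and in 13 of the 36. The 2 readable entries that are not shown, novel_mir53 and novel_mir856, had -26.3 and -42.1 kcal/mol per 100 nt. With 7 of 49 read, these values describe the entries named and not the 49.

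Distances within the 10000 bp of the rule were mostly short. Of the 49, 6 overlapped a locus, 22 lay within 1000 bp and 42 within 5000 bp, and the median distance was 1071 bp. Widening the distance to 50000 bp added 11 predicted miRNAs, to a count of 60. For scale, 0.479% of the strand-resolved genome span, 26.1 of 5444 Mb, lies within 10000 bp of a predicted piRNA locus, and 29.2% of predicted miRNAs do. Among 1005 annotated miRNA hairpins of RefSeq, 21 (2.09%) lay within the same distance on the same strand. Predicted miRNAs and predicted piRNAs both come from tags of these libraries, so both can lie only where such tags map. The genome share does not allow for this, nor do the hairpins, which were not limited to those with tags here. These differences were not tested. The nearest locus was 5′ of the predicted miRNA in 22 cases and 3′ of it in 21, so neither side prevailed.

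**Figure D1:**
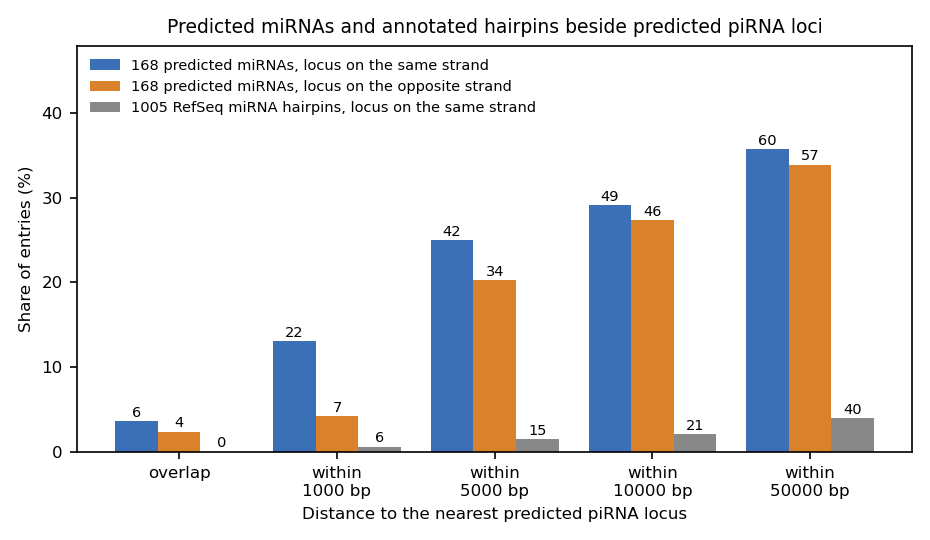
Share of entries (y axis, percent) that overlap or lie within a given distance (x axis, base pairs) of a predicted piRNA locus, for the predicted miRNAs on the same and on the opposite strand and for annotated RefSeq hairpins on the same strand; the number above each bar is the number of entries. At 10000 bp the bars stand at 49, 46 and 21 entries, and the same-strand and opposite-strand bars differ most at 1000 bp, with 22 and 7.

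Nearness to the loci was not limited to the strand of the rule. Loci of the opposite strand lay within 10000 bp of 46 predicted miRNAs (27.4%), and 43 of the 49 had loci on both strands within that distance. The exceptions with a locus on the same strand only were 6, and 3 further predicted miRNAs had one on the opposite strand only. Among the loci themselves, 492 of 1648 (29.9%), holding 53.5% of predicted piRNAs, had an opposite-strand locus within 10000 bp. At short range, 22 predicted miRNAs had a same-strand locus within 1000 bp and 7 had an opposite-strand locus there, a difference that was not tested.

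When loci of both strands were joined wherever gaps were at most 50 kb, 1006 blocks resulted, and all 49 predicted miRNAs belonged to 26 of them. Those 26 blocks (2.58%) covered 1021 kb and held 3210 predicted piRNAs (48.7%), 390 loci and 36.1% and 41.3% of predicted piRNA counts in libraries 1 and 2. Their median number of predicted piRNAs was 90.5, against 1 in the other blocks, and their median number of loci 13.5 against 1, so they are also the blocks with many loci. Of the 20 blocks with most predicted piRNAs, 16 had at least 1 of the 49. The block of highest rank without any was the tenth, chr11:103424209-103449154 with 113 predicted piRNAs. Loci of both strands were present in 23 of the 26 blocks, which held 46 of the 49, and in 104 of all 1006. In those 23 blocks, 25 of the 46 lay on the strand with the higher piRNA level and 21 on the other.

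**Figure D2:**
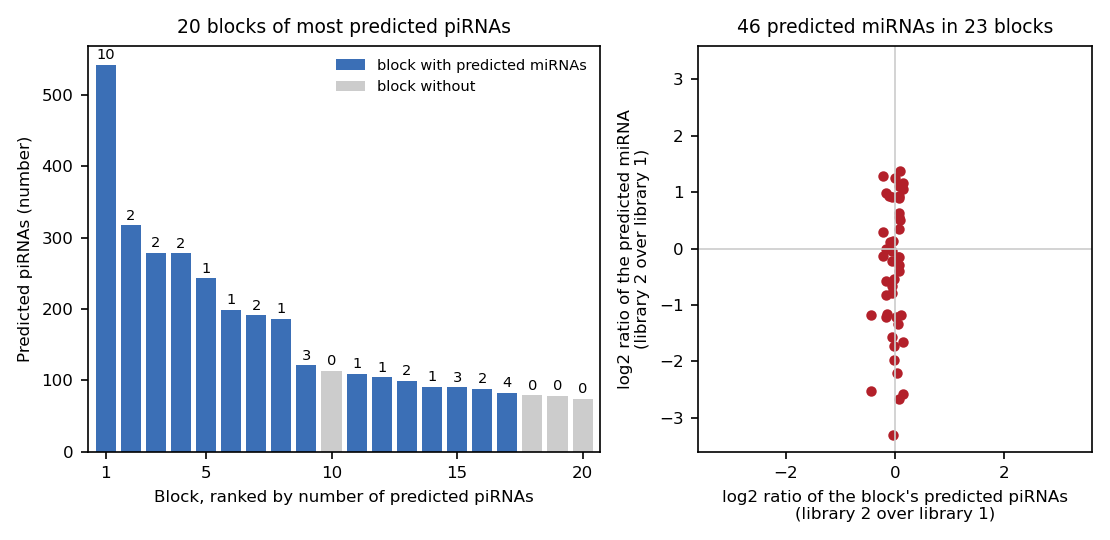
Left, number of predicted piRNAs (y axis) in the 20 blocks ranked by that number (x axis), coloured by whether the block holds predicted miRNAs, with their number above each bar; 16 of the 20 hold at least 1 and the first holds 10. Right, log2 ratio of library 2 over library 1 of each predicted miRNA (y axis) against that of the summed predicted piRNAs of its block (x axis) for 46 predicted miRNAs in 23 blocks of at least 10 predicted piRNAs; block ratios stay between -0.43 and 0.15 while the points spread widely in height.

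The block on chromosome 17 (chr17:27290676-27365776, 75.1 kb) was first in both respects, with 542 predicted piRNAs at 40 loci and 10 of the 49. Its predicted piRNAs summed to 1890 and 1980 CPM in libraries 1 and 2, split almost evenly between 964 and 1025 CPM on the plus strand and 926 and 955 on the minus strand. Its 10 predicted miRNAs summed to 337 and 333 CPM. novel_mir1696, novel_mir18, novel_mir3249 and novel_mir1659 lie on the plus strand, and novel_mir336, novel_mir3566, novel_mir20, novel_mir993, novel_mir62 and novel_mir3340 on the minus strand. When loci of 1 strand were joined over gaps of at most 10000 bp, 5 of the minus-strand entries fell in a region led by an ERVL-MaLR element at chr17:27357624-27357964, with 66 predicted piRNAs at 430 and 352 CPM. The 4 plus-strand entries lay in or within 10000 bp of a region led by an ERV1 element at chr17:27292126-27292683, with 36 predicted piRNAs at 144 and 97.2 CPM. Of them, novel_mir1659 and novel_mir1696 lay past its end. Outside that region, an ERVL-MaLR locus 57.3 kb from the block start was the plus-strand locus of highest level in the block, with 45 predicted piRNAs at 242 and 333 CPM. It leads another plus-strand region, which also has novel_mir1696 within 10000 bp. ERVL-MaLR and ERV1 are families of long terminal repeat retrotransposons. novel_mir993 lies 857 bp from the minus-strand ERVL-MaLR element.

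**Figure D3:**
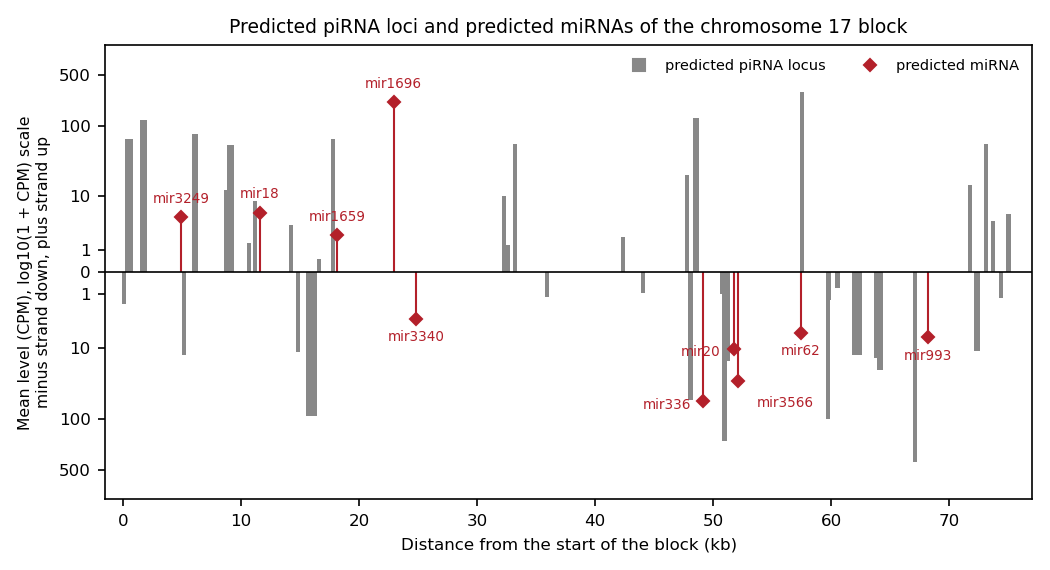
Predicted piRNA loci (grey bars, the shortest widened to be visible) and predicted miRNAs (red diamonds, labelled without the prefix novel_) along the 75.1 kb block of chromosome 17, as distance from the block start in kb (x axis) and mean CPM of the 2 libraries on a log10(1 + CPM) scale (y axis), plus strand upward and minus strand downward. The 4 plus-strand predicted miRNAs lie toward the left end of the map and 5 of the 6 minus-strand ones toward the right, with novel_mir1696 the highest.

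A further 10 blocks held more than 1 of the 49, and those in which at least 2 lie near each other on 1 strand are given here. novel_mir5 and novel_mir3545 on the minus and novel_mir2922 and novel_mir962 on the plus strand share the block chr7:73112247-73145465, in which the leading loci of their 1-strand regions were a LINE L1 element at chr7:73121286-73121439 (47.5 and 30.3 CPM) and an ERVL-MaLR element at chr7:73135669-73135807 (52.1 and 44.5 CPM). LINE L1 elements are autonomous retrotransposons without long terminal repeats. novel_mir3636 and novel_mir1588 lie 1937 bp apart, 3117 and 1115 bp from a LINE L2 locus with 16.7 and 18.0 CPM, past the end of a region led by an L1 element at chr7:73803055-73803464 with 92.3 and 113 CPM. novel_mir785 and novel_mir3550 lie in or beside a region led by an ERVL-MaLR element at chr9:67720353-67720800 with 104 and 108 CPM. The locus nearest to novel_mir3550 is an L1 element 5159 bp away. It belongs to another region, led by an L1 element at chr9:67695715-67696640 with 141 and 146 CPM. novel_mir1136, novel_mir3541 and novel_mir648 lie on chromosome 15 in or beside a region led by an ERVL-MaLR element at chr15:78657373-78657974 with 43.4 and 53.1 CPM. On chromosome 2, novel_mir1288 overlaps an ERVL-MaLR element at chr2:92587222-92587377 with 52.9 and 59.8 CPM, and novel_mir1623 lies in the same region, 1026 bp from its nearest locus, an ERV1 element. novel_mir22 is the entry of the 49 on chromosome 18, where its block held 243 predicted piRNAs.

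Within a strand, 17 of the 49 had another of the 49 within 10000 bp and 4 within 1000 bp. These 4 are novel_mir20 with novel_mir3566, 277 bp apart, and novel_mir1136 with novel_mir3541, 247 bp apart. Such neighbours share a stretch of the genome and are not independent entries.

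The nearest loci belonged mostly to long terminal repeat and LINE retrotransposons, as the loci in general did. ERVL-MaLR was nearest for 10 of the 49, LINE L1 for 9, ERVK for 7 and ERVL for 7. Of all 1648 loci, ERVK made up 29.7%, L1 21.5% and ERVL-MaLR 20.8%. The old LINE L2 family was nearest for 5 of the 49 (10.2%) and made up 2.12% of the loci. Because several of the 49 share a nearest locus, these shares were not tested.

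The summed level of the 49 was 1343 CPM in library 1 and 822 CPM in library 2, or 1082 ± 368 CPM. They held 7.56% (exact 95% interval 7.47 to 7.64) of the predicted miRNA counts in library 1 and 7.75% (7.64 to 7.85) in library 2. The rest was mostly novel_mir1, the most abundant predicted miRNA, which is not beside a predicted piRNA locus. Without novel_mir1 the 49 held 38.4% (38.1 to 38.8) and 40.5% (40.1 to 41.0). Of all listed counts they were 0.134% and 0.0822%. Intervals cover counting error only.

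A few entries carried most of this level. novel_mir4 held 38.1% of the counts of the 49 in library 1 and 18.9% in library 2, the 3 highest held 66.5% and 49.8%, and the 15 highest held 91.5% and 88.3%. All 49 had at least 10 counts in both libraries, and 19 had at least 100 in both. The median level was 4.73 CPM, and the lowest, novel_mir972, had 14 and 10 counts. Ranked by CPM per 100 nt of interval, the first 3 were unchanged and 9 of the first 10 were the same entries.

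**Figure D4:**
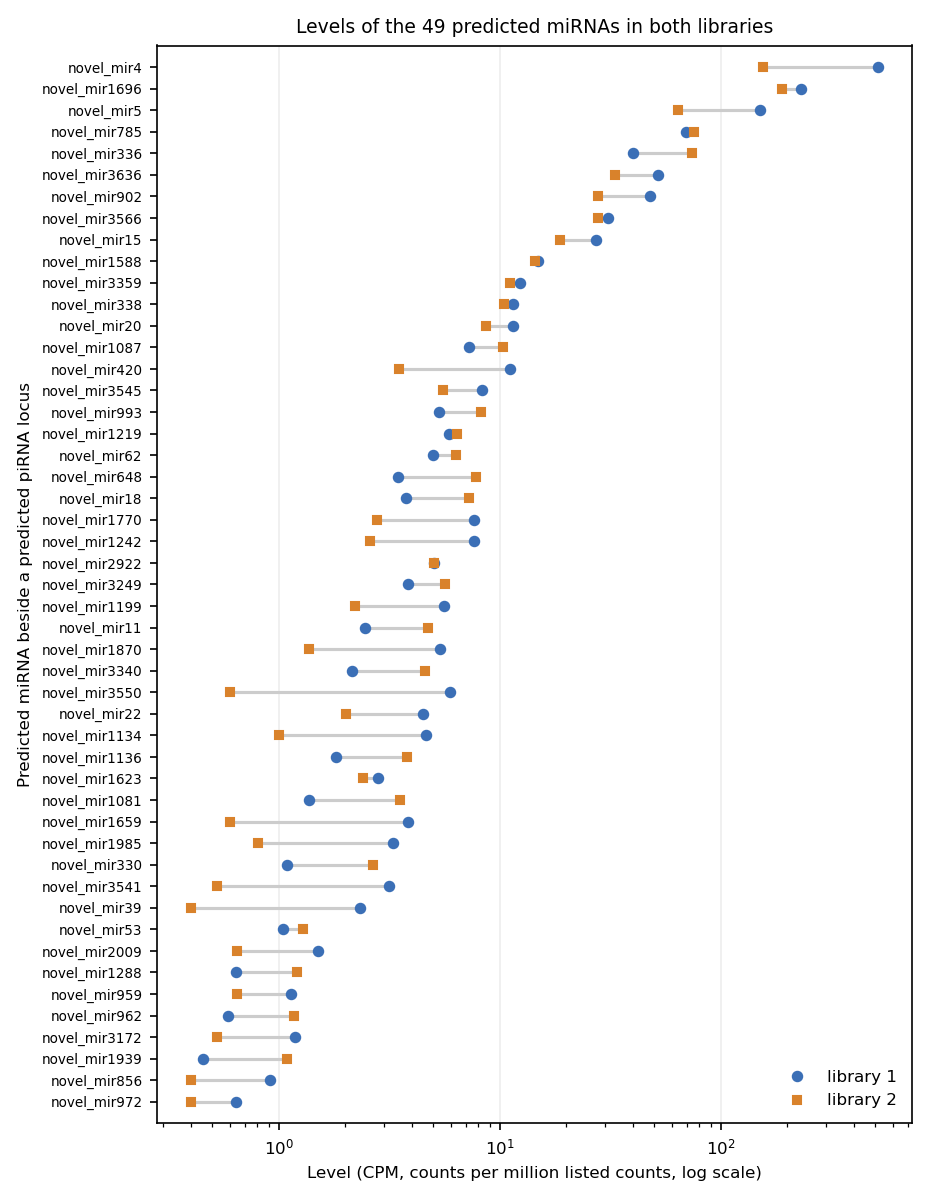
Level of each of the 49 predicted miRNAs (y axis, ordered by mean) in library 1 (circles) and library 2 (squares), in CPM on a log scale (x axis), with a grey line joining the libraries. The levels run from below 1 CPM to 512 CPM, and the symbols of novel_mir785, novel_mir1588 and novel_mir2922 almost coincide while those of novel_mir3550 are farthest apart.

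novel_mir4 (chr15:59284254-59284304, plus strand) lies in an intron of the lincRNA Gm36617, 298 bp from an L1 locus. It had 11250 counts in library 1 and 3859 in library 2, or 512 and 155 CPM (334 ± 252). The predicted piRNAs of its block summed to 422 and 419 CPM over 186 entries. So the predicted miRNA was 3.29-fold higher in library 1 while the piRNA sum around it was nearly the same in both libraries.

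novel_mir1696 (chr17:27313560-27313617, plus strand) had 5071 and 4713 counts, or 231 and 189.8 CPM (210.3 ± 29.0). It lies opposite an intron of the lincRNA Gm49793, 4956 bp from its nearest locus. novel_mir336 (chr17:27339799-27339878, minus strand) had 880 and 1843 counts, or 40.1 and 74.2 CPM (57.1 ± 24.2). On opposite strands of the chromosome 17 block, these entries differed between the libraries in opposite directions. novel_mir1696 was 1.22-fold higher in library 1 and novel_mir336 1.85-fold higher in library 2.

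novel_mir3566 had 678 and 690 counts (30.9 and 27.8 CPM), and novel_mir20, 277 bp from it, had 252 and 216 counts (11.5 and 8.70 CPM). Both lie opposite an exon of Gm10505, a gene of the plus strand. Both were slightly higher in library 1, novel_mir3566 by no more than counting error allows. novel_mir993 had 116 and 204 counts (5.28 and 8.22 CPM) and novel_mir18 had 83 and 180 counts (3.78 and 7.25 CPM), both higher in library 2.

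On chromosome 7, novel_mir5 (chr7:73123465-73123517, minus strand, outside annotated genes) had 3293 and 1596 counts, or 149.9 and 64.3 CPM (107 ± 60.5). novel_mir3636 (chr7:73815371-73815439, plus strand) had 1146 and 822 counts, or 52.2 and 33.1 CPM, and novel_mir1588 beside it had 326 and 359 counts, or 14.8 and 14.5 CPM. Thus novel_mir5 and novel_mir3636 were higher in library 1, and novel_mir1588 was close to equal. novel_mir1087 (chr7:69888341-69888409, plus strand) had 160 and 256 counts, or 7.28 and 10.3 CPM.

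On the other chromosomes, novel_mir785 (chr9:67725839-67725903, plus strand) had 1524 and 1886 counts, or 69.4 and 76.0 CPM (72.7 ± 4.66), the closest agreement among the 5 highest. novel_mir15 (chr5:113341093-113341156, minus strand) had 600 and 464 counts, or 27.3 and 18.7 CPM. novel_mir3359 (chr6:127806211-127806284, minus strand) had 270 and 276 counts, or 12.3 and 11.1 CPM. These 3 and novel_mir338 (chr8:92191976-92192029, minus strand), with 252 and 259 counts or 11.5 and 10.4 CPM, lie outside annotated genes. novel_mir420 (chr6:87992866-87992938, plus strand), in an intron of the antisense gene Gm5577, had 243 and 87 counts, or 11.1 and 3.50 CPM.

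The 6 that overlap a predicted piRNA locus spanned most of the range of levels. novel_mir902 (chr2:92597493-92597584, plus strand) had 1049 and 690 counts, or 47.7 and 27.8 CPM, and the L2 locus it overlaps had 2 predicted piRNAs at 2.87 and 4.55 CPM. novel_mir1770 (chr10:93815466-93815559, minus strand) had 168 and 69 counts, or 7.65 and 2.78 CPM, at an ERVK locus with 1 predicted piRNA at 0.728 and 0.644 CPM. Both predicted miRNAs were lower in library 2, while the locus was higher there for novel_mir902 and nearly equal for novel_mir1770. novel_mir1870 had 118 and 34 counts (5.37 and 1.37 CPM) at an ERVL-MaLR locus with 19.4 and 7.09 CPM, and novel_mir1985 (chr15:77377677-77377715, plus strand) had 72 and 20 counts (3.28 and 0.806 CPM) at an ERV1 locus with 5.64 and 1.61 CPM. Here predicted miRNA and locus were both lower in library 2. novel_mir1288 (chr2:92587285-92587326, minus strand) had 14 and 30 counts at the ERVL-MaLR locus named above, and novel_mir1939 (chr4:94309047-94309086, plus strand) had 10 and 27 counts at an L1 locus with 48 predicted piRNAs at 127 CPM in each library. At counts this low the exact interval of the library ratio is wide. It was 0.975 to 3.87 for novel_mir1288, which includes equality, and 1.12 to 5.53 for novel_mir1939, which excludes it.

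Between the libraries, 23 of the 49 (46.9%) were over 2-fold apart in CPM, against 35.6% of all 27065 entries, 27.1% of the entries with at least 10 counts in both libraries and 42.9% of all predicted miRNAs. Of the 23, 17 were higher in library 1 and 6 in library 2, where the shares of all entries were 14.2% and 21.5%. Among the other 119 predicted miRNAs 41.2% were over 2-fold apart, 39 (32.8%) being higher in library 1 and 10 (8.4%) in library 2, so the direction was the same as that of the 49. In such bulk libraries, more vesicles of a kind and more RNA in each vesicle cannot be told apart. The exact counting interval of the ratio excluded equality for 36 of the 49, among them all 23 of those over 2-fold apart, for 69 of the other 119 (58%) and for 50.7% of all entries.

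Of the 25 with a mean count of at least 100, a limit chosen here after the data were seen, 6 (24.0%) were over 2-fold apart, and of the 24 with a lower mean count 17 were. The 6 are novel_mir4, novel_mir5, novel_mir420, novel_mir1242 and novel_mir1770, all higher in library 1, and novel_mir648, higher in library 2. At the same mean count, 12 of 33 (36.4%) other predicted miRNAs, 29.0% of 917 predicted piRNAs and 20.1% of 6488 entries were over 2-fold apart. Below it, 37 of 86 other predicted miRNAs, 1662 of 5670 predicted piRNAs and 8335 of 20577 entries were, a lower share each time than 17 of 24. This difference was not tested. By mean count of at least 100, the 4 lowest log2 ratios of library 2 over library 1 were -1.72 for novel_mir4, -1.66 for novel_mir420, -1.57 for novel_mir1242 and -1.46 for novel_mir1770. The 4 highest were 1.17 for novel_mir648, 0.94 for novel_mir18, 0.89 for novel_mir336 and 0.64 for novel_mir993. novel_mir1242 (chr2:151259828-151259893, plus strand) had 168 and 64 counts, and novel_mir648 (chr15:78665565-78665630, plus strand) had 76 and 193. Of the 4 highest, 3 lie in the chromosome 17 block. The widest ratio of all, -3.30, was that of novel_mir3550, which had 131 and 15 counts and is named here after its value was seen.

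The median log2 ratio of the 49 was -0.28, between -0.58 in the other predicted miRNAs and -0.09 in the 3210 predicted piRNAs of the same blocks. It was -0.18 in all predicted piRNAs, 0.34 in known piRNAs and 0.18 in all entries. TMM scaling, which moved the median of all entries to -0.01, moved that of the 49 to -0.47, that of the other predicted miRNAs to -0.77 and that of the block piRNAs to -0.28, so the order stayed. The split of entries over 2-fold apart became 18 higher in library 1 and 3 in library 2. Without novel_mir4 the summed level was 831 and 666 CPM, with a log2 ratio of -0.32 in place of -0.71.

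**Figure D5:**
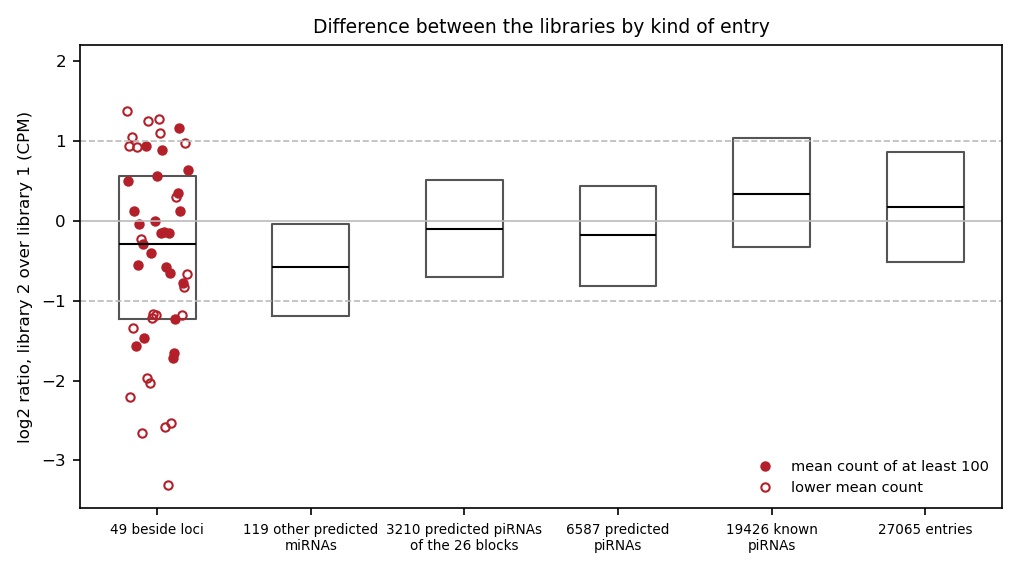
log2 ratio of library 2 over library 1 (y axis, from CPM) by kind of entry (x axis); boxes span the quartiles with the median as a line, and points are the 49 predicted miRNAs, filled where the mean count was at least 100. The median of the 49 is -0.28 and that of the other predicted miRNAs -0.58, and 19 of the 25 filled points lie between the dashed lines that mark a 2-fold difference.

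The summed piRNA level of the blocks was steadier than the predicted miRNAs in them. In the 23 blocks with at least 10 predicted piRNAs the log2 ratio of the block sum lay between -0.43 and 0.15 (SD 0.14), while the 46 predicted miRNAs of these blocks had an SD of 1.22. A sum over many entries varies less than its parts, and among the single predicted piRNAs of the 26 blocks 27.2% were over 2-fold apart. In the block chr7:73112247-73145465, the predicted piRNAs summed to 191 and 169.6 CPM, and its 4 predicted miRNAs, led by novel_mir5, to 164 and 76.0 CPM. In the block around novel_mir785 the respective sums were 834 and 815 CPM and 75.3 and 76.6 CPM.

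Most of the 49 lay outside annotated genes. At the deposited positions, 30 (61.2%) overlapped no gene of GENCODE M21 on either strand, compared with 38 of the other 119 (31.9%). On the same strand, 4 lay on an exon and 5 in an intron, and on the opposite strand 3 faced an exon and 7 an intron. The exons belong to the noncoding RNA Gm26917 (novel_mir2009), the processed pseudogenes Gm48450 (novel_mir856) and CT025671.2 (novel_mir53), and Gm43353 (novel_mir1870), an unclassified transcript still to be tested. The introns belong to the lincRNAs Gm31181, Gm36617 and Gm49793, the antisense RNA Gm5577 and Kcnk10, which encodes a potassium channel and holds novel_mir959. None of the 49 overlapped an annotated small RNA gene on either strand, as against 10 of the other 119. novel_mir2009, with 33 and 16 counts, lies 2066 bp before Rn18s-rs5, a pseudogene of 18S ribosomal RNA in RefSeq, beside a hAT-Tip100 locus whose 19 predicted piRNAs had 83.1 and 84.1 CPM. The share of ribosomal RNA fragments in its counts was not tested.

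The labelled tissue was checked with miRNAs. Of 24 entries of the testis-expressed X-linked cluster, miR-34c and miR-449a, 21 had at least 10 counts in both libraries, and the list summed to 6518 and 4969 CPM. The red blood cell marker miR-451a had a mean of 493 CPM and the smooth muscle marker miR-143 of 429 CPM. The mean was 70.1 CPM for miR-150 of leukocytes, 28.2 for miR-124 of neurons, 5.94 for miR-122 of liver and 3.12 for miR-1a of striated muscle. The part of other cells in the levels above was not tested.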

How the data were processed

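Small RNA of testicular EVs was sequenced by the authors on the BGISEQ-500 platform, low-quality reads were removed, and the rest were mapped to the genome and to small RNA databases with cmsearch and Bowtie2, which the submitters' processing notes also name. miRNAs were predicted with miRDeep2 and piRNAs with Piano. The sources used here do not give tool versions, the genome build, the treatment of tags with several positions or the tag lengths of an entry. The deposited tables give for each entry a whole-number count of tags and a value named TPM, which the authors scaled to 1000000 tags of a total above the listed sum and did not correct for length, so that its unit is RPM. Entries counted in 1 library alone were not analysed here.

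Deposited intervals of predicted miRNAs were read as counted from 0 and are printed as counted from 1, and those of predicted piRNA loci are printed as deposited. They were compared with GENCODE M21 and RefSeq on GRCm38. At these positions, 31 of 37 readable predicted miRNAs folded more stably than windows shifted by 100 nt, 6 of 7 among the 49.

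The distance was the gap between intervals. CPM were computed over the listed counts, shares with exact Clopper-Pearson 95% intervals, and the ratio of the libraries with the exact interval of 1 count share, all covering counting error only. Precision follows the counts, which are 10 to 11250 per library for the 49. Entries over 2-fold apart in CPM were counted as called. Folds were predicted with RNAfold 2.7.2. Python 3.11.15 with pandas 2.3.3, NumPy 2.4.6, SciPy 1.17.1 and matplotlib 3.10.9 was used, and edgeR 4.0.16 and DESeq2 1.42.0 in R 4.3.3 for scaling of the counts. The calculation of distances and ratios was tested on simulated data.

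The members and lists were chosen with earlier results of these data known. Entries were named by a rule: the 15 of highest mean CPM, the 4 highest and 4 lowest library ratios among those with a mean count of at least 100, all that overlap a locus of their own strand, the leading locus of each 1-strand region (gaps up to 10000 bp) with at least 2 of the 49, and up to 4 that overlap an annotated small RNA gene, of which there were 0. It covers 24 of the 49, and the others that are named were chosen by their position or after their values were seen. Alternatives covered distance, strand, counts, scaling, gaps, each library left out and the folded interval.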

Additional observations from a re-analysis of the deposited data

How the results depend on the processing

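No paired analysis was possible because both libraries belong to the same condition, and no result comes from a test. The number of predicted miRNAs beside a locus, 49, was 6 for overlap alone, 22 at 1000 bp and 19 with at least 100 counts in both libraries. It was 42 at 5000 bp, 60 at 50000 bp, 46 on the opposite strand, 52 on either strand and 35 with only loci that have a predicted piRNA of at least 100 counts in both libraries. Their summed level, 1082 CPM, was 605 CPM at 1000 bp and 4122 CPM over annotated classes alone, which is a change of scale. Their share of predicted miRNA counts, 7.65%, was 4.22% at 1000 bp, 8.08% at 50000 bp, 7.06% with at least 100 counts in both libraries and 39.5% without novel_mir1. With a library left out, the level was 822 to 1343 CPM and the share 7.56 to 7.75%, and a ratio of the libraries cannot be formed. The number over 2-fold apart, 23, was 9 of 22 at 1000 bp, 2 of 19 with at least 100 counts in both libraries, a limit that itself removes entries far apart, and 20 to 24 under other scalings. The median log2 ratio stayed below 0 under each of the 4 other scalings. Regions of 1 strand with at least 1 of the 49 numbered 42, and 98 where loci were joined over gaps of at most 1000 bp, since 1 entry can then lie beside several. Counted on either strand, 7 lay on an exon and 12 in an intron, in place of 4 and 5.

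Chosen after seeing the data, joining both strands over 50 kb gave 26 blocks, leaving out novel_mir4 gave a share of 5.48%, and leaving out chromosome 17 gave a count of 36. With a mean count of at least 100, also chosen then, 6 of 25 were over 2-fold apart. The levels of the 24 entries named by rule moved by less than their SD under TMM and DESeq2 scaling, and 1 moved further with the deposited RPM. With 10 nt added to each side, the median fold energy was -33.8 kcal/mol per 100 nt in the 6 entries that could be extended. The median of -29.0 is over all 7, including novel_mir3566, which could not be extended, so the 2 medians are not like for like. With the added bases the energy was lower in novel_mir20, novel_mir53 and novel_mir2009. It was higher in novel_mir993, novel_mir1870 and novel_mir856. Depth limits the low entries most, since 30 of the 49 had fewer than 100 counts in at least 1 library.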
